A study of Mus musculus with 6 samples.

Results

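The gliosis and injury response genes followed here are 10 genes chosen by symbol, Gfap, Lcn2, Serpina3n, Edn2, Cd44, Fgf2, Stat3, Socs3, Osmr and Bcl3, out of 24346 gene symbols measured in mouse retina. All 10 were found in every library, and 8 passed the filter for testing, a mean of at least 1 FPKM (fragments counted per kilobase of transcript and scaled to the library) over the libraries. Edn2 and Bcl3 lay below it. Retinal mRNA was sequenced from animals with a conditional knockout of Cyfip2 (CKO, 3 libraries) and from Cyfip2 wild-type animals (WT, 3 libraries) to ask which transcripts change when Cyfip2, a subunit of the actin-regulating WAVE complex, is deficient in the retina. The labels give no Cre line, cell type of deletion, age or sex. They also do not say whether libraries of a group came from separate animals, so that p-values measure only the spread between these libraries, which may be technical.

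When retinal neurons are stressed or injured, photoreceptors make ligands such as endothelin 2 and fibroblast growth factor 2, and Muller glia, the radial glia of the retina, answer by becoming reactive. Cytokines of the interleukin 6 family act through the shared receptor chain gp130 and Janus kinases on the transcription factor STAT3, which induces the intermediate filament gene Gfap and its own brake, Socs3. In the healthy retina Gfap RNA comes mostly from astrocytes of the nerve fibre layer, and its appearance in Muller glia is the usual sign of gliosis.

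To show where a STAT site could lie, the promoter windows of the members were read from RefSeq sequences on GRCm38.p6. Each window ran from 250 bases before to 50 after the RefSeq start. All 10 members matched 1 window each. The letters TTCNNNGAA, which read the same on both strands and form the core of STAT sites, were present in 2 of 10 members, Gfap and Socs3, and in 8.30% of all 32851 windows. The windows of Gfap (chr11:102897151-102897450, minus strand) and Socs3 (chr11:117969317-117969616, minus strand) are shown with this match in capitals. That of Serpina3n (chr12:104406458-104406757, plus strand), the member nearest to Gfap in its profile over the libraries, has no such match and is shown with a loose NF-kB pattern, rich in G and C, in capitals.
Gfap: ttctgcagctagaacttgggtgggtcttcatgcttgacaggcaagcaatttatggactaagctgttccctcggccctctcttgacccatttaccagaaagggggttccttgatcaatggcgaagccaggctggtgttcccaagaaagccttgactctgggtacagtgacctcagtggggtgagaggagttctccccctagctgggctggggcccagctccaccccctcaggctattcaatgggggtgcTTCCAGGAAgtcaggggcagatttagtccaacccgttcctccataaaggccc
Socs3: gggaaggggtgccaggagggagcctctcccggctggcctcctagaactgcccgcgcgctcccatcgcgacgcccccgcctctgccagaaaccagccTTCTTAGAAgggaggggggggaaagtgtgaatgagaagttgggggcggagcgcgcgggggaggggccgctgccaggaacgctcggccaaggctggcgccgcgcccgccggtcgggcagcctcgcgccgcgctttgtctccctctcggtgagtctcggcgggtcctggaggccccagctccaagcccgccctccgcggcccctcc
Serpina3n: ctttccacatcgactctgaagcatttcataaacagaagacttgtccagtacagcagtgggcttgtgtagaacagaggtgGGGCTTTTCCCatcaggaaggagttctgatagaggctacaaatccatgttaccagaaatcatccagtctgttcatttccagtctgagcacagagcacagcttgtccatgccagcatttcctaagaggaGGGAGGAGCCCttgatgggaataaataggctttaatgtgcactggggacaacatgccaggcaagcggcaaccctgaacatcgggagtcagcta

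Counted from the RefSeq start site, with negative positions upstream and no position 0, the match in Gfap began at -2 and that in Socs3 at -154. The gene spans printed below, from GENCODE M21, reach further upstream, to 102900912 for Gfap and 117970047 for Socs3. Both windows lie inside these spans, so that the positions hold for the RefSeq start only. The loose NF-kB pattern, searched on both strands, was present in 8 of 10 members and in 50.8% of all windows, and in Gfap it overlapped the STAT match. In Serpina3n the 4 matches of this pattern form 2 overlapping pairs. TGANTCA, the AP-1 pattern, was present in Osmr alone among the members and in 7.81% of windows, and TTGCNNAA, a C/EBP pattern, in Lcn2 alone and in 10.8% of windows. These matches describe letters in the windows and not bound sites.

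No member differed between CKO and WT retina past the threshold. Over all 13215 genes tested with limma on log2(FPKM + 1), the share with a Benjamini-Hochberg adjusted p under 0.05 was 0.0151% higher and 0.00757% lower in CKO, and among the 8 tested members it was 0 of 8 in each direction. Adjusted p-values of the members from this limma fit lay between 0.77 and 0.97. At an unadjusted p under 0.05 there were 0 of 8 members, against 3.52% of all tested genes higher and 4.36% lower in CKO. The CKO and WT values overlapped for each of the 10 members, whereas 6.96% of the tested genes had all CKO values above all WT values and 6.95% had all of them below. Log2 fold changes of CKO over WT were above 0 for 2 of the tested members and below 0 for 6, against 50.5% of all tested genes below 0. The members had a median of -0.11, beside -0.0016 over all tested genes. What stood out in the members' values lay inside the groups, in WT 3 and, for Gfap, Socs3 and Edn2, also in CKO 1. WT 3 held the highest value for 5 of 8 tested members, against 20.0% of all tested genes. CKO 1 held it for 2 of 8, near its share of 19.1%. With Edn2 and Bcl3, which were not tested, the counts were 6 of 10 for WT 3 and 3 of 10 for CKO 1.

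**Figure D1:**
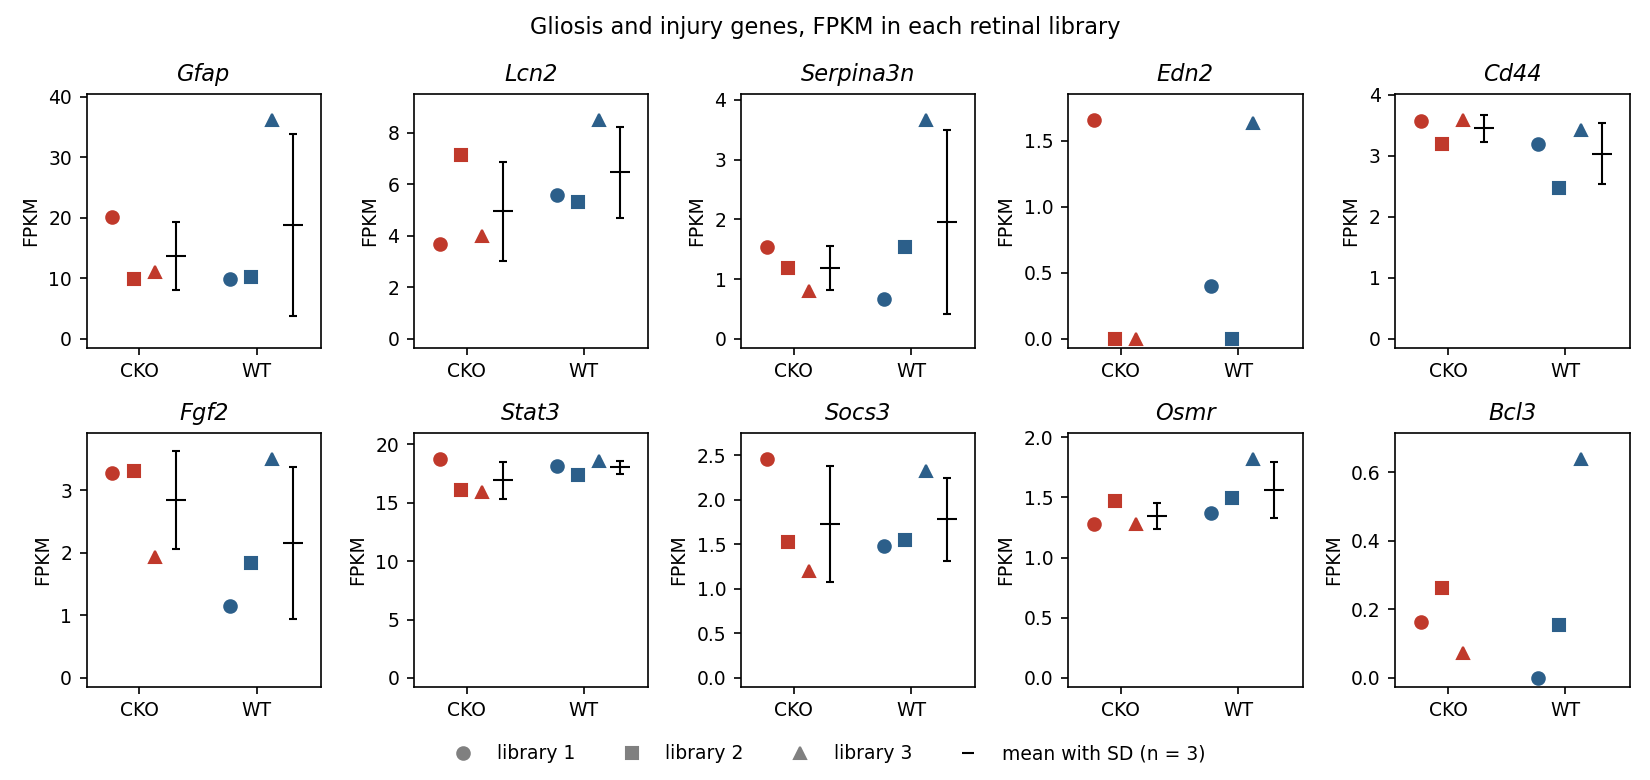
FPKM (y axis, from 0) of each member in the 3 CKO libraries (left, red) and the 3 WT libraries (right, blue), with the marker shape giving the library number and, for the 8 tested genes, a black bar for the mean and SD. For Gfap, 20.2 FPKM in CKO 1 and 36.2 FPKM in WT 3 stand above the other 4 libraries, which lie between 9.94 and 11.04 FPKM.

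Among members of the cytokine pathway, the transcription factor gene Stat3 had the steadiest values. Stat3 (chromosome 11, 100885098 to 100939540, minus strand, GENCODE M21 on GRCm38) was at 18.8, 16.1 and 15.9 FPKM in CKO 1 to 3, against 18.2, 17.4 and 18.5 FPKM in WT 1 to 3. The groups overlapped, since CKO 1 was the highest of all libraries while CKO 2 and CKO 3 were the lowest. Its mean was 16.9 ± 1.595 FPKM in CKO libraries, against 18.04 ± 0.574 FPKM in WT libraries (± SD, n = 3 each). The log2 fold change was -0.09 (95% confidence interval -0.26 to 0.08). The interval spans a fold of 0.835 to 1.06 on this scale. Stat3 shares 72 exon bases with the opposite-strand gene Stat5a, and no source used here states how strand was used in counting.

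Socs3, the feedback inhibitor that STAT3 induces, was more uneven than Stat3. Socs3 (chromosome 11, 117966079 to 117970047, minus strand) was at 2.46, 1.52 and 1.20 FPKM in CKO 1 to 3, against 1.48, 1.55 and 2.32 FPKM in WT 1 to 3. CKO 1 and WT 3 were the high libraries, and the other 4 lay close together across both groups. The log2 fold change was -0.04 (interval -0.50 to 0.41), and it was above 0 without CKO 2 (0.0011), CKO 3 (0.10) or WT 3 (0.09). Osmr, the receptor chain for oncostatin M (chromosome 15, 6813577 to 6874969, minus strand), was at 1.28, 1.47 and 1.28 FPKM in CKO 1 to 3, against 1.37, 1.496 and 1.82 FPKM in WT 1 to 3. WT 3 was again the highest library, here by a factor of 1.22 over the next. The log2 fold change of Osmr was -0.13 (interval -0.41 to 0.16).

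The structural and secreted products of reactive glia came next. Gfap (chromosome 11, 102887336 to 102900912, minus strand), which encodes the glial fibrillary acidic protein, was at 20.2, 9.94 and 11.04 FPKM in CKO 1 to 3, against 9.96, 10.3 and 36.2 FPKM in WT 1 to 3. Apart from the rest stood CKO 1 and WT 3, and the remaining libraries of both genotypes were nearly level. WT 3 was 3.58 times the mean of WT 1 and WT 2, and CKO 1 was 1.93 times the mean of CKO 2 and CKO 3. The group means were 13.7 ± 5.64 FPKM in CKO libraries, against 18.8 ± 15.1 FPKM in WT libraries (± SD, n = 3 each). Their log2 fold change was -0.24 (SE 0.47, interval -1.32 to 0.84). Its sign rested on WT 3: without that library the value was 0.34 (limma adjusted p = 0.87). Without both CKO 1 and WT 3, a choice made after seeing the data, it was 0.05, with a narrower interval of -0.17 to 0.27.

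Serpina3n, a secreted protease inhibitor and marker of reactive astrocytes, followed a similar course. Serpina3n (chromosome 12, 104406729 to 104414329, plus strand) was at 1.545, 1.19 and 0.807 FPKM in CKO 1 to 3, against 0.661, 1.545 and 3.67 FPKM in WT 1 to 3. WT 3 was 2.37 times the next highest library, and CKO 1 and WT 2 were level. Its log2 fold change was -0.32 (interval -1.11 to 0.47), and without WT 3 it was 0.07. The gene belongs to a cluster of close Serpina3 paralogs, among which reads may have been split. Gfap and Serpina3n were among 29 genes, 0.219% of those tested, for which WT 3 was at least 1.5 times every other library, and the other 5 libraries each had 13 to 28 such genes.

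Lcn2, the iron-binding acute phase protein lipocalin 2, did not share the high value in CKO 1. Lcn2 (chromosome 2, 32384633 to 32388252, minus strand) was at 3.70, 7.15 and 4.003 FPKM in CKO 1 to 3, against 5.60, 5.31 and 8.51 FPKM in WT 1 to 3. WT 3 was the highest library and CKO 1 the lowest, and CKO 2 lay between WT 3 and the other WT libraries. The means were 4.95 ± 1.91 FPKM in CKO libraries, against 6.47 ± 1.77 FPKM in WT libraries (± SD, n = 3 each), with a log2 fold change of -0.35 (interval -0.89 to 0.19). It was -0.60 without CKO 2, -0.16 without WT 3 and -0.0156 without both CKO 1 and WT 3. Cd44, the hyaluronan receptor that marks reactive Muller glia (chromosome 2, 102811141 to 102901665, minus strand), was at 3.57, 3.19 and 3.59 FPKM in CKO 1 to 3, against 3.19, 2.47 and 3.43 FPKM in WT 1 to 3. Here WT 2 was low and the other 5 libraries lay within a narrow band. The log2 fold change of Cd44 was 0.15 (interval -0.13 to 0.42).

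The ligands made by stressed photoreceptors gave a less uniform picture. Fgf2 (chromosome 3, 37348346 to 37410108, plus strand) was at 3.28, 3.31 and 1.93 FPKM in CKO 1 to 3, against 1.14, 1.83 and 3.50 FPKM in WT 1 to 3. WT 3 was the highest library, yet WT 1 and WT 2 were below all CKO libraries. The log2 fold change was 0.33 (interval -0.30 to 0.96) and ranged from 0.08 without WT 1 to 0.62 without WT 3 when 1 library was left out (limma adjusted p = 0.94 and 0.71). Fgf2 shares 640 exon bases with Nudt6 on the opposite strand and 255 with the same-strand gene Gm43439, so that its reads may not all be its own.

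Edn2, the endothelin that photoreceptors make after damage, was close to an on or off reading. Edn2 (chromosome 4, 120161206 to 120167360, plus strand) was at 1.66 FPKM in CKO 1 and listed at 0 in CKO 2 and CKO 3, against 0.401 FPKM in WT 1, a listed 0 in WT 2 and 1.63 FPKM in WT 3. CKO 1 and WT 3, the libraries with high Gfap, were thus the high libraries for Edn2 as well. A listed 0 may be a failed estimate, since the ribosomal protein gene Rpl30 was also listed at 0 in WT 1, with 13.3 to 21.5 FPKM in the other libraries. Scaled by the relative depth of the libraries, the Edn2 values stood in the ratio 13 to 0 to 0 in CKO 1 to 3 and 3 to 0 to 13 in WT 1 to 3, with a largest deviation of 0.1355%. In a fit without the filter on low values the log2 fold change was -0.16 (interval -1.27 to 0.95, limma adjusted p = 0.96).

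Bcl3, an atypical inhibitor of kappa B that binds NF-kB p50 and p52, was the least abundant member. Bcl3 (chromosome 7, 19808462 to 19822770, minus strand) was at 0.162, 0.262 and 0.0717 FPKM in CKO 1 to 3, against a listed 0, 0.155 and 0.639 FPKM in WT 1 to 3. WT 3 was the highest library. The depth-scaled values stood in the ratio 2 to 4 to 1 in CKO 1 to 3 and 0 to 2 to 8 in WT 1 to 3, with a largest deviation of 0.164%. If the smallest unit is 1 fragment, this gene was read from at most 8 fragments a library. Without the filter its log2 fold change was -0.09 (interval -0.50 to 0.32, limma adjusted p = 0.93). The Bcl3 locus shares 161 exon bases with Gm16175 on the opposite strand.

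**Figure D2:**
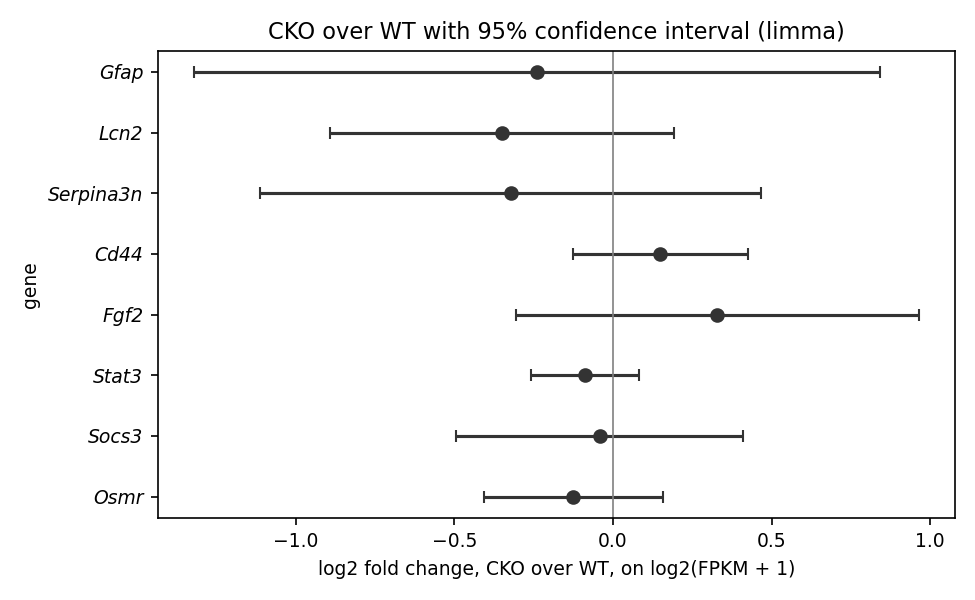
Log2 fold change of CKO over WT on the log2(FPKM + 1) scale (x axis) for the 8 tested members (y axis), with bars for the 95% confidence interval from limma. All 8 intervals include 0, and the widest is that of Gfap, -1.32 to 0.84.

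Set in order of their mean level over the 6 libraries, Stat3 (17.5 FPKM) and Gfap (16.3 FPKM) came first, and the ranges of both overlapped. Lcn2 followed at 5.71 FPKM, with no library as high as the lowest Gfap value. Cd44 had a mean of 3.24 FPKM and no library as high as the lowest Lcn2 value. Fgf2 (2.501 FPKM), Socs3 (1.76 FPKM), Serpina3n (1.57 FPKM), Osmr (1.45 FPKM), Edn2 (0.616 FPKM) and Bcl3 (0.215 FPKM) came next, and each overlapped its neighbours. The SD over the 6 libraries was 132% of the mean for Edn2 and 105% for Bcl3, the least abundant members. It was 69.5% for Serpina3n, 64.8% for Gfap, 39.5% for Fgf2, 32.3% for Lcn2 and 28.95% for Socs3. Osmr (13.9%), Cd44 (12.85%) and Stat3 (7.03%) varied least.

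The members did not all share their high libraries. Summed over the 10 members, the level was 56.65, 44.2 and 39.8 FPKM in CKO 1 to 3, against 42.0, 42.0 and 80.3 FPKM in WT 1 to 3. Gfap made up 20.2 FPKM of this sum in CKO 1 and 36.2 FPKM in WT 3. For the other 9 members the sum was 36.4, 34.2 and 28.8 FPKM in CKO 1 to 3, against 32.0, 31.8 and 44.1 FPKM in WT 1 to 3. WT 3 was among the 2 highest libraries for 9 of 10 members and CKO 1 for 6, whereas CKO 1 was the lowest library for Lcn2 and Osmr. The share of all tested genes, which leave out Edn2 and Bcl3, with WT 3 among the 2 highest was 36.2%, and that for CKO 1 was 35.2%. The 2 highest values were held by CKO 1 and WT 3 together for Gfap, Edn2, Stat3 and Socs3, and for Serpina3n with WT 2 level with CKO 1. The same held for 4.86% of all tested genes, which again leave out Edn2. The pair was picked after the members' values were seen, so that this share is no test of it. For Stat3, WT 1 at 18.2 FPKM was close behind the pair, at 18.8 and 18.5 FPKM.

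**Figure D3:**
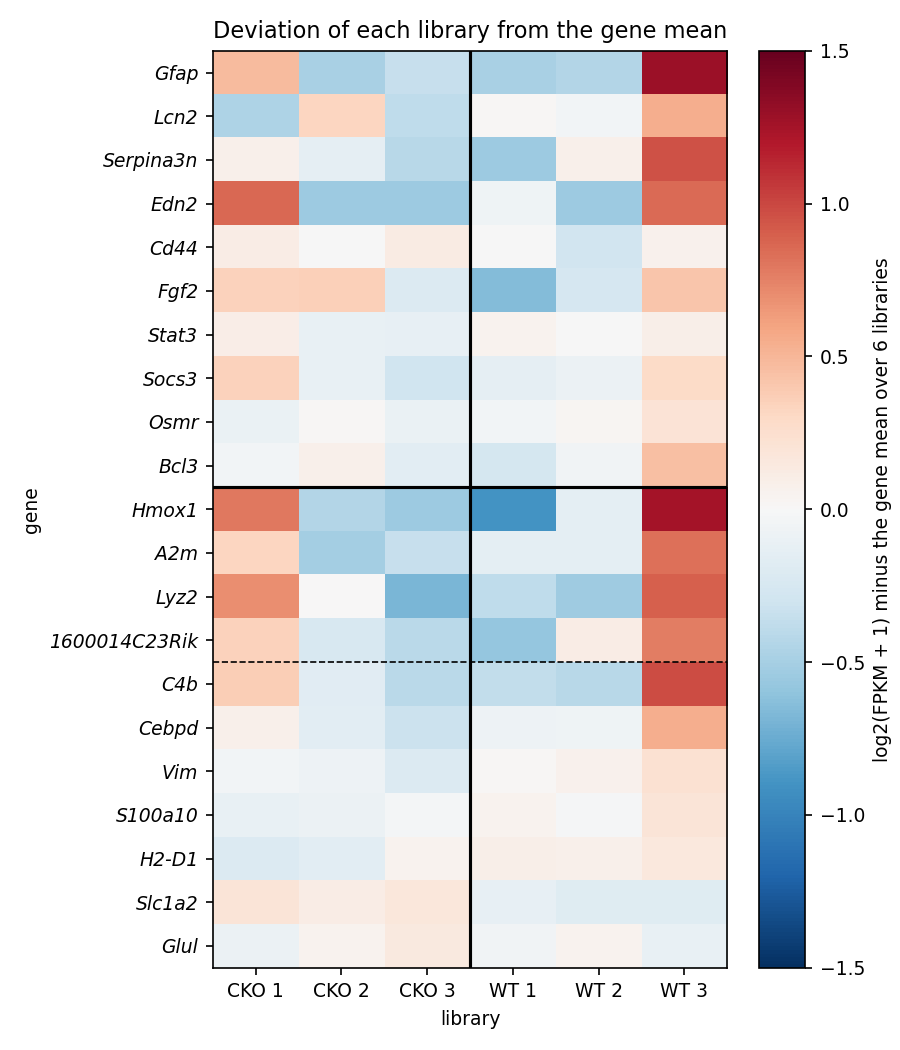
Deviation of log2(FPKM + 1) in each library (columns, CKO left and WT right) from the gene's mean over the 6 libraries (colour) for the 10 members (top), the 4 further genes with the profile nearest to Gfap (middle) and 7 comparison genes chosen after their values were seen (bottom). CKO 1 and WT 3 are high for Gfap and Edn2, and for Hmox1, A2m and Lyz2, which were chosen by likeness to Gfap. Of the comparison genes, C4b, which lay below the filter, and Cebpd show the same pattern and Glul does not.

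The genes whose profile over the 6 libraries lay nearest to that of Gfap were Hmox1, A2m, Lyz2, 1600014C23Rik and the member Serpina3n. Likeness was measured as the root mean square difference of log2(FPKM + 1), each gene centred on its own mean, and the distances were 0.26, 0.27, 0.31, 0.33 and 0.33. Hmox1, the stress-induced heme oxygenase, was at 9.07, 3.27 and 2.99 FPKM in CKO 1 to 3, against 2.12, 4.245 and 12.8 FPKM in WT 1 to 3. As for Gfap, CKO 1 and WT 3 were the high libraries. Lyz2, a lysozyme of myeloid cells, was at 5.925, 3.275 and 1.655 FPKM in CKO 1 to 3, against 2.28, 1.94 and 6.91 FPKM in WT 1 to 3. A2m, the protease inhibitor alpha-2-macroglobulin, was at 2.09, 0.738 and 0.938 FPKM in CKO 1 to 3, against 1.23, 1.24 and 3.37 FPKM in WT 1 to 3. Both repeated the order in which WT 3 was highest and CKO 1 second. None of these genes differed between CKO and WT past the threshold in limma, with adjusted p-values of 0.82 to 0.99. These genes were chosen by likeness to Gfap over the same libraries. Their high values in CKO 1 and WT 3, and largely the lack of a call, thus follow from the choice. Among the other members, Socs3 ranked 45 and Fgf2 79 of 13214 genes by this distance, while Lcn2 ranked 3313.

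Genes of the pathways around the members gave no call in either direction. In bulk retina, fewer cells of a type and less RNA per cell cannot be told apart, for these genes as for the members. Of 8 ligands of the interleukin 6 family, 2 were tested and 0 passed. Cntf, ciliary neurotrophic factor, was at 4.39 ± 0.923 FPKM in CKO libraries, against 4.53 ± 0.724 FPKM in WT libraries (± SD, n = 3 each), while Il6 was listed at 0 in all 6 libraries. Clcf1, a ligand of the same receptor as Cntf, was at 1.28, 1.61 and 1.997 FPKM in CKO 1 to 3, against 1.435, 2.06 and 2.225 FPKM in WT 1 to 3, and the groups overlapped. Of 8 receptor and Janus kinase genes, 7 were tested, with 6 fold changes above 0, 1 below 0 and a median of 0.09. In limma 0 passed, and 1 was higher at an unadjusted p under 0.05, beside 3.52% of all tested genes. The gp130 gene Il6st was at 20.0 ± 0.75 FPKM in CKO libraries, against 18.5 ± 1.14 FPKM in WT libraries, a log2 fold change of 0.11 (interval -0.03 to 0.26). The Janus kinase gene Tyk2 was at 6.79 ± 0.342 FPKM in CKO libraries, against 5.68 ± 0.368 FPKM in WT libraries, a log2 fold change of 0.22 (limma adjusted p = 0.59). Of 12 tested STAT genes and inhibitors, 9 lay above 0 and 3 below, with a median of 0.04. The inhibitor gene Socs2 was at 8.76 ± 0.633 FPKM in CKO libraries, against 9.72 ± 0.318 FPKM in WT libraries (limma adjusted p = 0.72), and Socs7 at 38.2 ± 0.1305 FPKM in CKO libraries, against 36.3 ± 1.45 FPKM in WT libraries (limma adjusted p = 0.77).

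Endothelin and FGF signalling genes were likewise without a call. Of 5 tested endothelin ligands, enzymes and receptors, 2 lay above 0 and 3 below. Ece1, an endothelin-converting enzyme, was at 17.4 ± 0.7535 FPKM in CKO libraries, against 15.8 ± 0.801 FPKM in WT libraries (± SD, n = 3 each). The log2 fold change of Ece1 was 0.13 (limma adjusted p = 0.68). The ligand gene Edn1 was at 1.37 ± 0.246 FPKM in CKO libraries, against 1.07 ± 0.167 FPKM in WT libraries (limma adjusted p = 0.78). The receptor gene Ednrb was at 2.52, 2.31 and 2.57 FPKM in CKO 1 to 3, against 2.22, 2.25 and 3.11 FPKM in WT 1 to 3, so that WT 3 was the highest. Of 7 tested FGF genes, 3 lay above 0 and 4 below. At an unadjusted p under 0.05 in limma 2 were higher, beside 3.52% of all tested genes. Fgf13, an intracellular FGF-like protein that binds sodium channels, was at 24.7 ± 0.84 FPKM in CKO libraries, against 22.2 ± 0.18 FPKM in WT libraries (log2 fold change 0.15, limma adjusted p = 0.55). Fgf14, of the same subfamily, was at 10.08 ± 0.441 FPKM in CKO libraries, against 8.645 ± 0.441 FPKM in WT libraries (log2 fold change 0.20, limma adjusted p = 0.57). Of 12 tested NF-kB genes, 5 lay above 0 and 7 below, with a median of -0.06. Nfkbie, which encodes an inhibitor of NF-kB, was at 0.795 ± 0.2575 FPKM in CKO libraries, against 1.23 ± 0.0954 FPKM in WT libraries (limma adjusted p = 0.65). Rela, the p65 subunit gene, was at 10.6 ± 0.27 FPKM in CKO libraries, against 9.88 ± 0.162 FPKM in WT libraries (limma adjusted p = 0.77).

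Other genes of reactive glia and of injury gave no call either. Of 16 tested reactive glia genes outside the members, 6 lay above 0 and 10 below in fold change (median -0.06). In limma 0 passed, and 3 were lower at an unadjusted p under 0.05, beside 4.36% of all tested genes. Of the 16, 7 were highest in WT 3 and 2 in CKO 1 (over all tested genes, 20.0% and 19.1%). Vim, the intermediate filament partner of Gfap, was at 116, 113 and 103 FPKM in CKO 1 to 3, against 120.5, 125 and 140 FPKM in WT 1 to 3. All CKO libraries were below all WT libraries, and the log2 fold change was -0.21 (interval -0.37 to -0.05, limma adjusted p = 0.53). The class I antigen gene H2-D1 was at 19.6 ± 1.97 FPKM in CKO libraries, against 22.8 ± 0.679 FPKM in WT libraries (± SD, n = 3 each), with an adjusted p of 0.57 in limma. The complement gene C4b, named after its values were seen, was at 1.015, 0.389 and 0.1795 FPKM in CKO 1 to 3, against 0.212, 0.1698 and 2.07 FPKM in WT 1 to 3. The mean of C4b lay below the filter, so that it was not tested. Of 8 tested injury and acute phase genes, 4 lay above 0 and 4 below, and 0 passed. WT 3 was highest for 4 of them, beside 20.0% of all tested genes. Atf3, a stress-induced transcription factor gene, was at 1.03 ± 0.363 FPKM in CKO libraries, against 1.57 ± 0.435 FPKM in WT libraries (limma adjusted p = 0.71). Il4ra, the interleukin 4 receptor chain, was at 3.5, 3.52 and 3.69 FPKM in CKO 1 to 3, against 3.07, 2.81 and 2.68 FPKM in WT 1 to 3. All CKO libraries were above all WT libraries, and the log2 fold change was 0.25 (interval 0.03 to 0.46, limma adjusted p = 0.59).

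Markers of other cells were measured beside the members. Muller glia markers, 16 of 16 tested, had a summed level of 2413, 2471 and 2617 FPKM in CKO 1 to 3, against 2408, 2512 and 2404 FPKM in WT 1 to 3. CKO 1 and WT 3 were not high in this sum, nor in that of the astrocyte markers. Much of the Muller glia sum came from Glul (893.4 to 1070 FPKM), so that it says little about the less abundant genes. Of the 16 Muller glia genes, 0 were highest in WT 3 and 3 in CKO 1, beside 20.0% and 19.1% of all tested genes. The astrocyte sum was 241.7, 243.4 and 246.7 FPKM in CKO 1 to 3, against 233.7, 243.5 and 223 FPKM in WT 1 to 3. Most of it came from Aldoc (135.0 to 152.1 FPKM) and Slc1a2, so that it says little about the less abundant astrocyte genes. Of 7 tested astrocyte genes, 2 were highest in WT 3, Pdgfra (8.43 FPKM) and Aldh1l1 (6.899 FPKM), and 1 in CKO 1, Slc1a2. CKO 1 was second for Pdgfra (6.903 FPKM), but lay below all WT libraries for Aldh1l1 (6.088 FPKM). Microglia markers summed to 79.7, 69.0 and 72.6 FPKM in CKO 1 to 3, against 73.6, 68.2 and 94.1 FPKM in WT 1 to 3. WT 3 and CKO 1 were the highest libraries here. Of 14 tested microglia genes, 8 were highest in WT 3 and 4 in CKO 1, beside 20.0% and 19.1% of all tested genes. The complement gene C1qa was at 7.57, 6.61 and 7.499 FPKM in CKO 1 to 3, against 7.13, 7.97 and 11.04 FPKM in WT 1 to 3, with WT 3 above the other 5 libraries. Aif1, which encodes the microglial protein Iba1, was at 0.994, 0.643 and 1.055 FPKM in CKO 1 to 3, against 0.624, 2.47 and 2.35 FPKM in WT 1 to 3, so that WT 2 was slightly above WT 3. The part of microglia markers in the levels of the members was not tested. Blood cell markers summed to 19.1, 21.1 and 13.1 FPKM in CKO 1 to 3, against 17.9, 18.4 and 31.6 FPKM in WT 1 to 3, with WT 3 the highest. Most of this sum came from Hba-a1 (12.1 to 29.6 FPKM), while Hba-a2 stayed near 0.058 FPKM in every library and Hbb-bs lower still. Of these markers 1 was tested, Hba-a1, at a log2 fold change of -0.285 and with no call. Of the astrocyte list, the gap junction gene Gja1 was at 1.95, 2.24 and 1.81 FPKM in CKO 1 to 3, against 4.33, 3.695 and 2.01 FPKM in WT 1 to 3 (limma adjusted p = 0.61). WT 3 lay within the range of the CKO libraries for Gja1. The glutamate transporter gene Slc1a2, of the same astrocyte list, was at 59.2, 56.1 and 58.2 FPKM in CKO 1 to 3, against 47.5, 45.5 and 45.5 FPKM in WT 1 to 3. All CKO libraries were above all WT libraries, and the log2 fold change of Slc1a2 was 0.32 (interval 0.22 to 0.42, limma adjusted p = 0.14). Which retinal cells the Slc1a2 RNA came from was not tested. Abca8a, a transporter gene of Muller glia, was at 35.1 ± 1.45 FPKM in CKO libraries, against 30.95 ± 1.27 FPKM in WT libraries (log2 fold change 0.17, limma adjusted p = 0.51), and Gpr37 of the same list at 88.2 ± 4.89 FPKM in CKO libraries, against 83.2 ± 2.65 FPKM in WT libraries. None of these genes passed, with 10 of 16 Muller glia genes, 3 of 7 astrocyte genes and 6 of 14 microglia genes above 0.

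**Figure D4:**
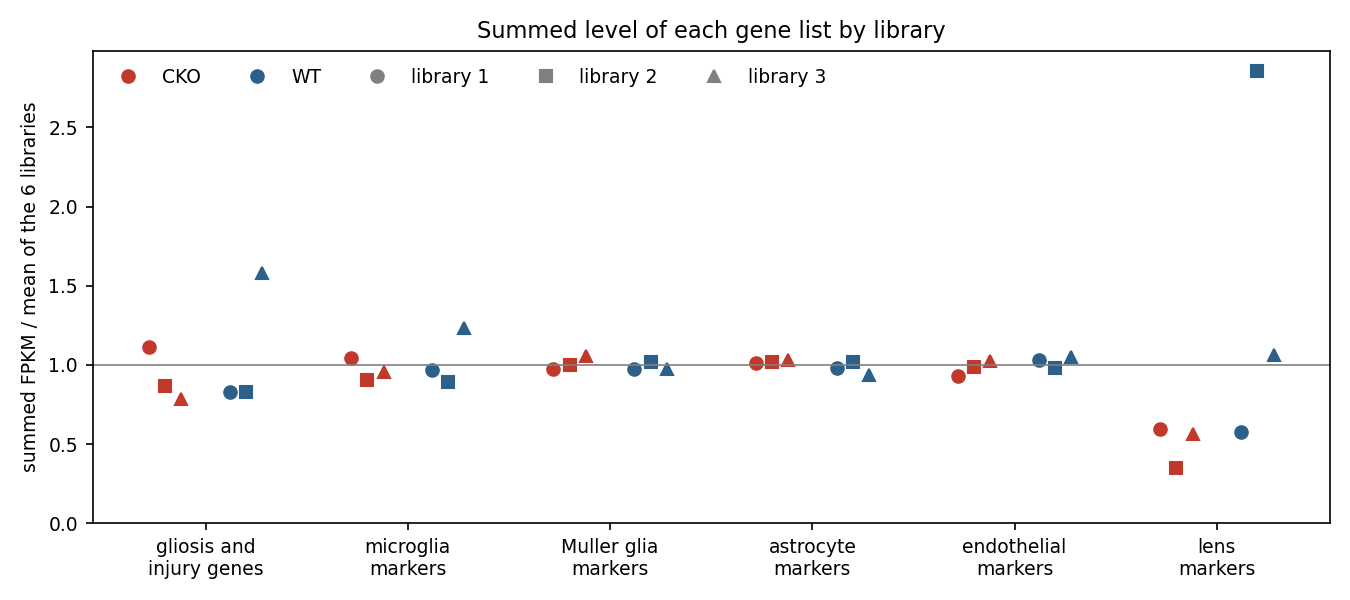
Summed FPKM of each gene list divided by its mean over the 6 libraries (y axis, from 0), with CKO libraries in red on the left and WT libraries in blue on the right of each list. WT 3 is the highest library for the members (80.3 FPKM in sum), the microglia markers (94.1 FPKM) and, by a small margin, the endothelial markers, and WT 2 for the lens markers (316 FPKM).

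The remaining marker lists were measured in the same way. Endothelial markers summed to 126.7 to 139.5 FPKM in CKO and 133.4 to 142.5 FPKM in WT. Of 10 tested endothelial genes, 1 lay above 0 and 0 passed. At an unadjusted p under 0.05 in limma 2 were lower, beside 4.36% of all tested genes. The highest library was WT 3 for 5 and CKO 1 for 0, beside 20.0% and 19.1% of all tested genes. The tight junction gene Cldn5 was at 19.7 ± 1.34 FPKM in CKO libraries, against 23.1 ± 1.38 FPKM in WT libraries (limma adjusted p = 0.51), and the receptor gene Tie1 at 3.98 ± 0.426 FPKM in CKO libraries, against 4.83 ± 0.0943 FPKM in WT libraries (limma adjusted p = 0.60). Pericyte markers summed to 37.9 to 47.5 FPKM in CKO and 37.6 to 44.1 FPKM in WT, with 2 of 5 tested genes above 0, Rgs5 (log2 fold change 0.17) and Kcnj8 (0.18). Pigment epithelium markers summed to 15.7 to 19.6 FPKM in CKO and 10.8 to 19.6 FPKM in WT, with 4 of 6 tested genes above 0, among them Ttr (log2 fold change 0.44) and Rdh5 (0.38). Cornea and conjunctiva markers did not exceed 1.91 FPKM in sum, and 3 of 8, Krt5, Krt14 and Kera, were listed at 0 in every library. Lens markers summed to 38.6 to 65.5 FPKM in CKO, against 63.3, 316 and 117 FPKM in WT 1 to 3, so that WT 2 and not WT 3 was the highest. Of 9 tested lens genes, 9 were below 0 and 0 passed in limma. At an unadjusted p under 0.05 in limma 6 were lower, beside 4.36% of all tested genes. The crystallin gene Crygs was at 2.66, 3.44 and 3.30 FPKM in CKO 1 to 3, against 5.01, 20.1 and 9.96 FPKM in WT 1 to 3 (limma adjusted p = 0.42). Crybb1, another crystallin gene, was at 4.19, 3.06 and 6.88 FPKM in CKO 1 to 3, against 6.89, 23.1 and 7.66 FPKM in WT 1 to 3. WT 2 was the highest library for both.

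**Figure D5:**
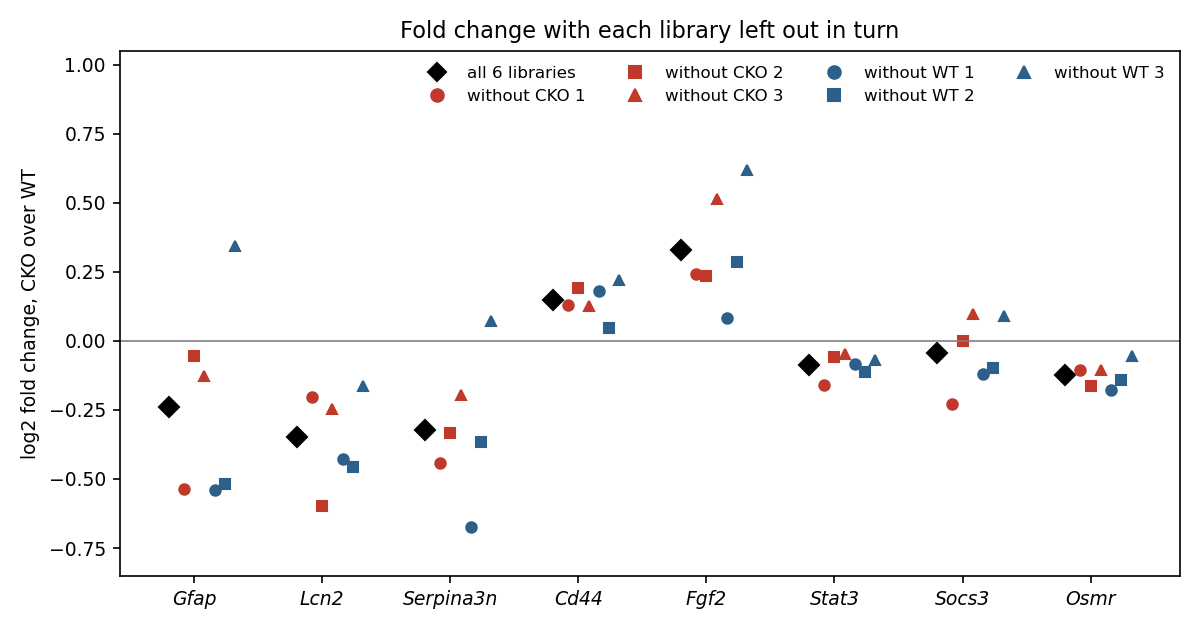
Log2 fold change of CKO over WT (y axis) for the 8 tested members with all 6 libraries (black diamonds) and with each library left out in turn (colour for the group and shape for the number of the library left out). Gfap lies at -0.24 with all libraries and at 0.34 without WT 3.

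The labels were checked with Cyfip2 itself, which was at 8.325, 10.25 and 11.2 FPKM in CKO 1 to 3, against 35.45, 63.15 and 62.3 FPKM in WT 1 to 3. The groups did not overlap (log2 fold change -2.29, limma adjusted p = 0.024). This was the only gene called lower in CKO, and its call rested on the settings: the adjusted p in limma was 0.074 without the filter, 0.10 without the trend and 0.11 with robust eBayes. Leaving out 1 library gave 0.00099 without WT 1 and 0.056 to 0.18 without any other, with log2 fold changes of -2.55 to -2.15. Among libraries, WT 3 stood apart in that 9.66% of its summed FPKM came from the 10 most abundant features, against 5.65% to 6.27% in the others. The absolute depth is unknown, and depth relative to WT 1, read from the steps of low values, was 1 to 1.295.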

How the data were processed

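Retinal mRNA of 3 CKO and 3 WT mouse libraries was measured. TRIzol extraction and a TruSeq kit for stranded mRNA were used, per the labels' protocols. The deposited values are FPKM per gene symbol, 1 table per library. Cufflinks 2.2.1, SAMtools 1.11, TopHat2 2.0.13, Bowtie2 2.3.5.1 and mm10 appear in the submitters' processing notes, without their roles. No source used here states the annotation, the parameters or the use of strand. For WT 3, 27 symbols turned into dates were restored from the other libraries, row by row. Symbols were matched to GENCODE M21 on GRCm38, the build of mm10 (23310 of 24346 found).

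Values were taken as log2(FPKM + 1), which understates changes of low genes. Genes averaging 1 FPKM or more (13215) were tested with limma 3.58.1 in R 4.3.3 (eBayes with trend, two-sided, no covariate) and adjusted by Benjamini-Hochberg at 0.05. With 3 against 3 libraries a permutation test cannot go below p = 0.1, so none was used. On simulated data with 200 of 13215 genes changed in CKO over WT, the fit found 9.6% of the genes shifted 0.25 on the log2 scale, and for shifts of 0.5, 1 and 2 it found 68.8%, 96.6% and 99.8%. It also called 7 unchanged genes on average. The noise was normal, at each gene's moderated SD, and an adjusted p is easier to pass where many genes change. These rates are averages over genes and do not give the power for a member as variable as Gfap (SE 0.47). Relative depth came from genes with a mean under 0.3 FPKM, where 77.7% to 81.7% of ratios to WT 1 lay within 0.02 (log2) of ratios of small whole numbers. Ratios called whole for Edn2 and Bcl3 were within 3%.

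Members and lists were chosen with earlier results of these data known. Named genes are the 10 members, the 2 genes of smallest p of each list, the 5 nearest to Gfap and Cyfip2; Ednrb, Il6, C4b and the others were named after their values were seen. Alternatives were other pseudocounts (0.1, 0.01), filters (none, 0.1, 5 FPKM), quantile normalization, size factors, a block for the replicate number, no trend, robust eBayes, sample weights and each library left out.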

Additional observations from a re-analysis of the deposited data

How the results depend on the processing

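In 17 alternative fits and 1 more chosen after seeing the data, 0 members passed the threshold in limma in either direction. The lowest adjusted p was 0.64 (Serpina3n). Unadjusted p-values under 0.05 appeared only with a library left out, the lowest being 0.014 for Lcn2. Lcn2, Stat3 and Osmr stayed below 0 and Cd44 and Fgf2 above 0 in every alternative in which they were tested. With each library left out, the log2 fold change ranged from -0.54 to 0.34 for Gfap, -0.67 to 0.0711 for Serpina3n, -0.23 to 0.10 for Socs3, -0.60 to -0.16 for Lcn2, 0.05 to 0.22 for Cd44, 0.08 to 0.62 for Fgf2, -0.16 to -0.05 for Stat3 and -0.18 to -0.05 for Osmr. The sign turned without WT 3 for Gfap (0.34), Serpina3n (0.0711) and Socs3 (0.09), and for Socs3 also without CKO 2 (0.0011) or CKO 3 (0.10). Without both CKO 1 and WT 3, Gfap was at 0.0466. Fewer libraries were fitted in these cases.

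Over all tested genes, 2 were higher and 1, Cyfip2, was lower in CKO. With each library left out there were 1 to 3 higher and 0 to 2 lower genes, and without both CKO 1 and WT 3 there were 4 higher and 5 lower. The count higher was 1 with the replicate block and 1 without the trend, and the count lower was 0 without the filter, 0 without the trend and 0 with robust eBayes; the cause was not tested. The replicate numbers do not pair the libraries by the labels. Deviations of same-numbered libraries correlated at 0.07, 0.0063 and 0.10 over genes, and CKO 2 did not correlate best with its own number. The replicate block changed no call among the members. Absolute depth is unknown, so that no interval for counting error was set.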
